A study of Mus musculus with 10 samples.

Results

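The GDNF family is a set of 4 secreted ligands, 4 GFRα coreceptors and the receptor tyrosine kinase Ret, and its 9 mouse genes were taken by symbol from the 55401 genes of the count table. All 9 were found, each under 1 gene identifier. RNA had been sequenced in 10 libraries of cells sorted for the nerve growth factor receptor, which the submitters call Schwann cells, the glia of peripheral nerve. The 5 tumour libraries came from pancreatic ductal adenocarcinomas of tamoxifen-inducible KPC mice on a C57BL/6 background, given tamoxifen at 20 mg/kg on 5 days from the age of 6 weeks. The 5 pancreas libraries are of pancreas from KPC mice that had no induction, and both groups were taken at 4 months of age. KPC mice are a genetic model of pancreatic cancer, with its alleles and recombinase driver not given in the sources used here. Both groups carry the inducible alleles, so they differ by induction, by tissue and by the way the tissue was dissociated. The sample descriptions code the tumour libraries as COCUL and the pancreas libraries as CTL without explanation, and the labels do not say whether libraries came from separate animals, so a p-value here reflects only how much these libraries vary, which could be technical variation.

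Each ligand binds mainly 1 coreceptor, a protein tethered to the cell surface by a lipid anchor, and the pair then brings Ret molecules together and switches on their kinase. GDNF prefers GFRα1, neurturin (Nrtn) GFRα2, artemin (Artn) GFRα3 and persephin (Pspn) GFRα4. Ret is needed for the enteric nervous system and the kidney in mice, Schwann cells make GDNF and artemin after nerve injury, and GDNF from nerves attracts pancreatic cancer cells that carry Ret. The comparison of tumour with pancreas libraries therefore asks which of these genes the sorted cells carry in each tissue.

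Ret and the coreceptor genes Gfra1 and Gfra2 fell in the tumour libraries, and 1 ligand gene rose by a narrow call. Of the 7 members with enough counts to be tested, Ret, Gfra2 and Gfra1 fell and Artn rose, while Gdnf, Nrtn and Gfra4 did not pass (edgeR quasi-likelihood test, Benjamini-Hochberg adjusted p below 0.05 over 17548 genes). Pspn had too few counts to be tested and Gfra3 had none. So many genes differed between the groups that these counts say little by themselves, since 65.8% of all tested genes passed, 33.4% as lower in tumour and 32.4% as higher. Of the 7 tested members 4 both passed and differed at least 2-fold, as did 23.0% of all tested genes. The groups did not overlap for Ret, Gfra1 and Gfra2, and did not for 54.6% of the tested genes. The median log2 fold change of the tested members was -0.95, and that of all tested genes 0.0022. Levels are CPM, counts brought to a common library total and scaled by the trimmed mean of M-values (TMM), given as mean ± SD of 5 libraries. Each log2 fold change is the tumour level minus the pancreas level, ± SE.

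Total counts were 58242278 to 84194616 in the tumour libraries and 60622336 to 89816499 in the pancreas libraries. The labelled cell type was weakly marked in both groups. Sox10, the transcription factor that defines Schwann cells, totalled 0 counts over the tumour libraries and 12 over the pancreas libraries, and Ngfr, the gene of the sort antigen, had 22 in all tumour libraries and 49 in all pancreas libraries. The 10 Schwann markers summed to 6.59 to 8.24 CPM of the library total in tumour and 2.64 to 4.61 in pancreas, with Foxd3 at 0 throughout and 53.6% of the sum from Erbb3. Markers of other cells also moved with the groups. The 8 fibroblast markers summed to 98.2 to 119.5 CPM in tumour and 499 to 593 in pancreas. The 6 smooth muscle and pericyte markers summed to 257 to 268 in tumour and 403 to 541 in pancreas, and the 5 endothelial markers to 204 to 217 in tumour and 327 to 374 in pancreas. For each of these and for the Schwann list the adjusted p was 0.0102 over 9 lists (exact two-sided permutation test). Each exact p was 0.00794 before adjustment, the smallest that 5 libraries per group allow, reached wherever groups do not overlap. Groups did not overlap for 54.6% of all tested genes. Over all 10 libraries pooled, Thy1 carried 56.5% of the fibroblast sum, Cspg4 58.2% of the smooth muscle sum and Cdh5 92.0% of the endothelial sum. Within a group the shares differed. Thy1 had 3.99 ± 0.723 TMM-scaled CPM in tumour and 391 ± 25.2 in pancreas, and Cspg4 248 ± 4.57 in tumour and 171 ± 19.8 in pancreas. The lower fibroblast sum in tumour came mostly from Thy1 and Col3a1 (42.8 ± 7.23 TMM-scaled CPM in tumour and 162 ± 30.6 in pancreas). The lower smooth muscle sum in tumour came from Acta2 and Tagln, not from Cspg4. Acta2 had 1.74 ± 0.153 TMM-scaled CPM in tumour and 266 ± 45.1 in pancreas, and Tagln 0.541 ± 0.228 in tumour and 41.8 ± 8.12 in pancreas. Some markers went the other way, with Pdgfra 3.64-fold, Myh11 3.76-fold and Cspg4 1.45-fold higher in tumour (edgeR). The part of these markers in the results that follow was not tested.

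RefSeq promoter sequence is shown for the most abundant ligand gene and for the coreceptor gene that fell and has an entry. RefSeq promoters (GRCm38.p6) were matched for 6 of the 9 members, Gdnf, Nrtn, Artn, Pspn, Gfra1 and Gfra4. The 250 bases before the annotated start are given 5′ to 3′ on the strand of the gene, at chr15:7809798-7810047 (plus strand) for Gdnf and chr19:58455399-58455648 (minus strand) for Gfra1. The starts differ between annotations, since the RefSeq start of Gdnf lies 798 bases upstream of the GENCODE gene start and that of Gfra1 lies 511 bases downstream of it, inside the GENCODE gene. Capitals mark any match, on either strand, to 3 common promoter motifs. The letters of the core promoter element are TATAAA, those bound by the factor NF-Y are CCAAT, and those bound by the factor Sp1 are GGGCGG. No match overlaps another.
Gdnf: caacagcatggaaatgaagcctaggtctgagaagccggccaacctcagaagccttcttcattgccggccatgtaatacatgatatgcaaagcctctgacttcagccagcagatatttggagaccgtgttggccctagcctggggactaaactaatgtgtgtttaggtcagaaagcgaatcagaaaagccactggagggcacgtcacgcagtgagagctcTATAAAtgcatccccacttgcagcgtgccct
Gfra1: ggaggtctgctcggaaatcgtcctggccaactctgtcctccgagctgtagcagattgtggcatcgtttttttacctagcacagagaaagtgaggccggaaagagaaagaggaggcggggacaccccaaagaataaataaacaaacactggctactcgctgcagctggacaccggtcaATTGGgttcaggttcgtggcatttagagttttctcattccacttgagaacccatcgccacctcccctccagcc
The Gdnf stretch holds the core promoter element, which begins 31 bases before the start, a motif present in 12.4% of 32851 mouse promoter windows of the same length. The Gfra1 stretch holds the NF-Y motif on the opposite strand, 73 bases before the start, a motif present in 33.9% of those windows. A second Gdnf start lies downstream, and its 250 bases held the NF-Y motif and neither of the other motifs. The Sp1 motif was present in 32.7% of the windows, in Nrtn (1 match) and Artn (2 matches) among the members.

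Gdnf, the founding ligand and a survival factor for motor and enteric neurons, was the main ligand gene of both groups. The gene lies on chromosome 15 (mm10, 7810846 to 7837575, ENSMUSG00000022144.4). It had 12.5, 10.5, 10.2, 11.5 and 12.3 CPM in tumour libraries 1 to 5, against 12.6, 11.5, 14.3, 13.1 and 15.3 CPM in pancreas libraries 1 to 5. The groups overlapped, with tumour replicates 1, 4 and 5 above the lowest pancreas library. The means were 11.4 ± 1.03 CPM in tumour and 13.3 ± 1.48 in pancreas, and the log2 fold change of -0.23 ± 0.10 just missed the threshold (edgeR adjusted p = 0.0542). Its p came to 0.0462 with DESeq2 and 0.0451 with limma-voom, both adjusted, and to 0.281 when libraries were scaled by their totals alone, a scaling under which the median of all genes was 0.10 higher.

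Artn encodes artemin, the ligand that supports sensory and sympathetic neurons through GFRα3. It lies on chromosome 4 (117926162 to 117929763, ENSMUSG00000028539.14). It had 43, 45, 51, 26 and 27 counts in tumour libraries 1 to 5, against 7, 4, 35, 0 and 16 in pancreas libraries 1 to 5. The groups overlapped only through pancreas replicate 3, which lay above tumour replicate 4 on the CPM scale (0.401 CPM, against 0.334 in that tumour library). The means were 0.503 ± 0.126 CPM in tumour and 0.156 ± 0.157 in pancreas, a 3.13-fold rise that passed narrowly (log2 fold change 1.65 ± 0.67, edgeR adjusted p = 0.0452). The call ended in 9 of the 17 alternatives that gave it a value, among them leaving out any tumour library or pancreas replicate 1, 2 or 5 (adjusted p = 0.0534 to 0.0983). It stood without pancreas replicate 3 or 4, and over all 17 the adjusted p ran from 0.00751 to 0.0983.

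Nrtn and Pspn, the remaining ligands, lie on chromosome 17 (Nrtn at 56751325 to 56757530, ENSMUSG00000039481.5, and Pspn at 56999457 to 57000018, ENSMUSG00000002664.2). Nrtn, whose product supports parasympathetic and enteric neurons, had 32, 58, 30, 25 and 20 counts in tumour libraries 1 to 5, against 17, 61, 143, 72 and 26 in pancreas libraries 1 to 5. Pancreas replicates 2, 3 and 4 were high, while pancreas replicate 5 lay within the range of the tumour libraries and pancreas replicate 1 below it. The means were 0.431 ± 0.181 CPM in tumour and 0.833 ± 0.557 in pancreas (log2 fold change -0.95 ± 0.47, edgeR adjusted p = 0.0910). Nrtn passed as lower without tumour replicate 2 (-1.25, adjusted p = 0.0438), pancreas replicate 1 (-1.17, 0.0334) or pancreas replicate 5 (-1.16, 0.0357), and was nearer to 0 without pancreas replicate 3, at -0.55 (edgeR). Without pancreas replicates 3 and 4 together its log2 fold change was -0.19 (edgeR adjusted p = 0.753). Pspn, the ligand of GFRα4, had 0, 7, 3, 0 and 3 counts in tumour libraries 1 to 5, against 10, 10, 32, 24 and 14 in pancreas libraries 1 to 5. Every tumour library was below every pancreas library, but the counts are those of a gene near the floor. In the edgeR fit without a filter on low counts, Pspn was lower in tumour with an adjusted p of 0.0245.

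**Figure D1:**
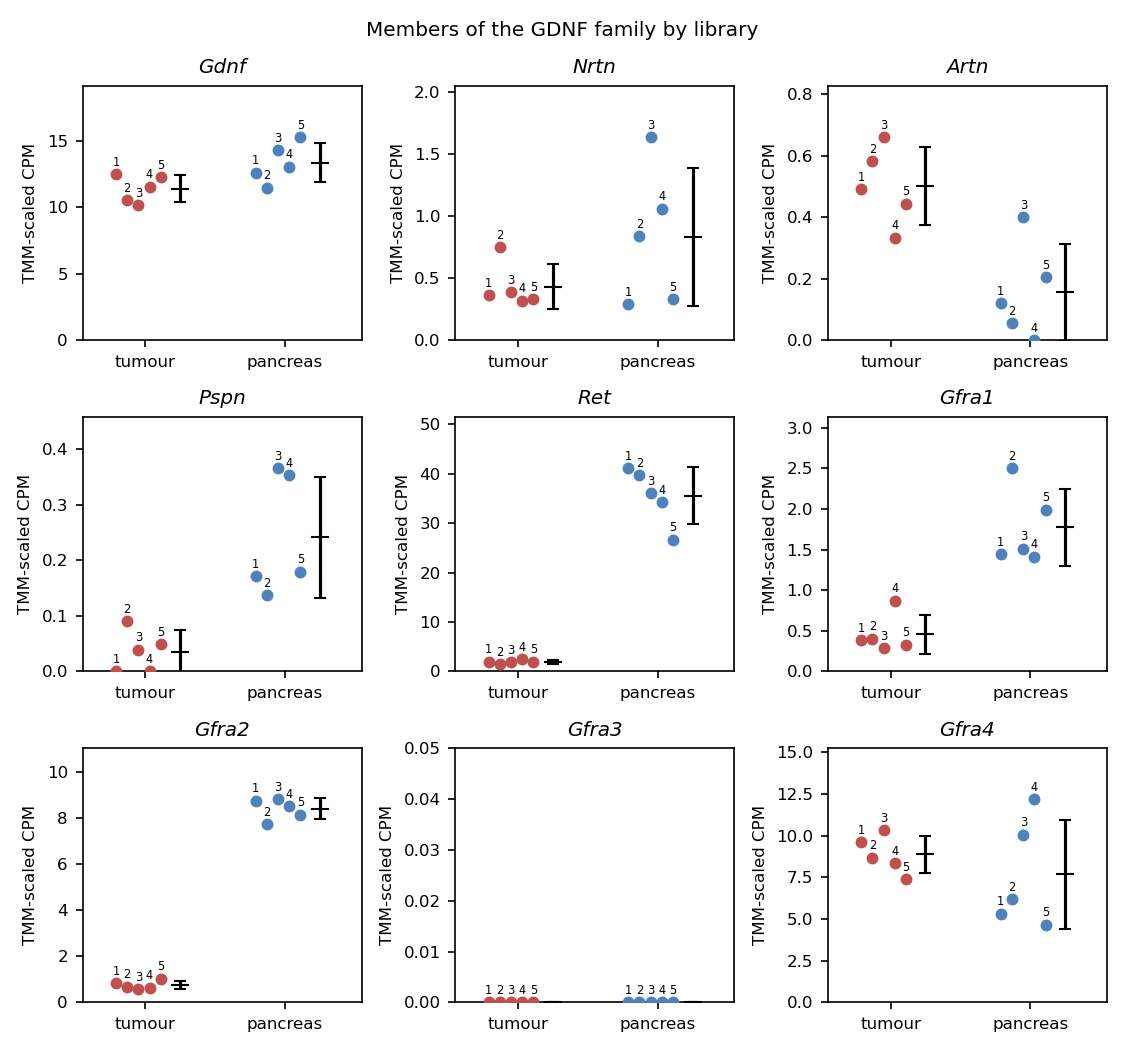
Levels of the 9 members in each library, in TMM-scaled CPM on linear axes that differ between panels, with replicate numbers beside the points and the mean ± SD of 5 libraries as black bars. The 5 tumour libraries of Ret, Gfra1 and Gfra2 lie below all pancreas libraries, while those of Gdnf, Nrtn, Artn and Gfra4 overlap with them.

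Ret, the kinase that all 4 ligand and coreceptor pairs share, was the member that fell furthest. It lies on chromosome 6 (118151745 to 118197718, ENSMUSG00000030110.13). Its level was 1.99, 1.43, 1.84, 2.54 and 1.98 CPM in tumour libraries 1 to 5, against 41.2, 39.6, 36.1, 34.3 and 26.7 CPM in pancreas libraries 1 to 5. No library of a group came near the other group, and the highest tumour library (2.54 CPM) was far below the lowest pancreas library (26.7 CPM). The mean was 1.95 ± 0.399 CPM in tumour and 35.6 ± 5.68 in pancreas, an 18.2-fold fall (log2 fold change -4.18 ± 0.16, edgeR adjusted p = 2.2e-10). From the lowest fold change up, Ret stood 106th of 17548 tested genes. In bulk samples such as these, fewer cells that carry a transcript and less of it per cell cannot be told apart. Autonomic and enteric neurons carry Ret, and 6 of the 10 markers of these neurons averaged below 0.1 CPM over all libraries. Among these 6, Elavl4, Phox2a, Dbh and Chat had 0 counts in tumour and only 4, 5, 13 and 10 in all pancreas libraries. Of the 4 markers tested, Th was 17.6-fold higher in tumour (1.68 ± 0.278 CPM in tumour and 0.0920 ± 0.0830 in pancreas, edgeR adjusted p = 1.4e-05). Tubb3 was 9.20-fold lower, and Uchl1 and Prph did not pass. The sum of the 10 was 15.2 to 17.2 CPM of the library total in tumour and 46.9 to 52.5 in pancreas. Its adjusted p was 0.0102 over 9 lists (exact permutation). Over all libraries pooled, 70.3% of the sum came from the tubulin gene Tubb3.

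Gfra2, the coreceptor for neurturin, fell nearly as clearly. The gene lies on chromosome 14 (70890120 to 70979838, ENSMUSG00000022103.10). It had 0.822, 0.687, 0.584, 0.642 and 1.04 CPM in tumour libraries 1 to 5, against 8.76, 7.74, 8.83, 8.53 and 8.14 CPM in pancreas libraries 1 to 5. The groups were well apart, and among the tested members Gfra2 had the smallest spread within pancreas (coefficient of variation 5.43%). The mean was 0.754 ± 0.181 CPM in tumour and 8.40 ± 0.456 in pancreas, 11.2-fold lower in tumour (log2 fold change -3.48 ± 0.16, edgeR adjusted p = 1.0e-09). It stood 165th of 17548 from the lowest fold change.

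Gfra1, the coreceptor through which GDNF acts, was low in both groups and lower in tumour. It lies on chromosome 19 (58235604 to 58455909, ENSMUSG00000025089.15). The 5 tumour libraries had 0.388, 0.402, 0.285, 0.872 and 0.330 CPM, against 1.44, 2.51, 1.51, 1.41 and 1.99 CPM in the 5 pancreas libraries. Tumour replicate 4 was high within its group but still below every pancreas library. The mean was 0.455 ± 0.238 CPM in tumour and 1.77 ± 0.472 in pancreas, 3.88-fold lower in tumour (log2 fold change -1.95 ± 0.32, edgeR adjusted p = 1.2e-04). An antisense gene, Gm16277, overlaps exons of Gfra1, and since the library kit does not mark strand, reads of the pair in shared exons cannot be told apart. Gm16277 is listed at 0 counts in all 10 libraries, which does not settle how such reads were assigned.

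Gfra4, the coreceptor for persephin, did not fall with the other coreceptors. It lies on chromosome 2 (131039632 to 131043088, ENSMUSG00000027316.15). It had 9.61, 8.70, 10.3, 8.34 and 7.41 CPM in tumour libraries 1 to 5, against 5.32, 6.19, 10.1, 12.2 and 4.66 CPM in pancreas libraries 1 to 5. The pancreas libraries split, with replicates 3 and 4 at or above the level of most tumour libraries and replicates 1, 2 and 5 below all of them. The mean was 8.88 ± 1.13 CPM in tumour and 7.69 ± 3.29 in pancreas (log2 fold change 0.21 ± 0.24, edgeR adjusted p = 0.464). Pancreas replicates 3 and 4 were known from earlier results to stand apart from the other pancreas libraries. With only pancreas replicates 1, 2 and 5 left, the log2 fold change was 0.71 ± 0.14 (edgeR adjusted p = 6.9e-04). Replicates 3 and 4 held the highest Gfra4 levels of the pancreas group. Leaving them out was therefore bound to raise the difference, and the pass is no evidence of a rise. The same pair of libraries was also the highest of the pancreas group for Nrtn and Pspn.

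Gfra3, the coreceptor for artemin (ENSMUSG00000024366.8), had 0 counts in all 10 libraries. A count of 0 allows up to 3 counts, or 0.0342 to 0.0494 CPM per tumour library and 0.0344 to 0.0515 CPM per pancreas library. That limit covers counting error only, and it may be too low because 1 fragment may have been counted more than once in these files. The narrowly called rise of Artn was thus measured in libraries in which its preferred coreceptor was not detected at this depth.

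Divided by exon length, so that genes can be set against each other, the levels put different members on top in each group. In tumour, Gfra4 (4.10 ± 0.522 CPM per kilobase) came first and Gdnf (3.10 ± 0.279) second, and libraries of these 2 genes did not overlap. A wide gap followed, then came Nrtn (0.422 ± 0.177 CPM per kilobase), Ret (0.289 ± 0.0590), Gfra2 (0.213 ± 0.0512), Artn (0.209 ± 0.0525), Gfra1 (0.0832 ± 0.0434) and Pspn (0.0756 ± 0.0802). From Nrtn down to Pspn each gene overlapped with the next over the 5 tumour libraries, so neighbours in this order are not resolved. Further apart some were, since the lowest tumour library of Nrtn (0.314 CPM per kilobase) was above every tumour library of Gfra2, Artn, Gfra1 and Pspn, and the lowest of Ret (0.211) above every one of Gfra1 and Pspn. In pancreas, Ret came first (5.26 ± 0.840 CPM per kilobase), followed by Gdnf (3.63 ± 0.404), Gfra4 (3.55 ± 1.52) and Gfra2 (2.37 ± 0.129), and each of these 4 overlapped with its neighbour. Nrtn (0.814 ± 0.545), Pspn (0.510 ± 0.230) and Gfra1 (0.324 ± 0.0863) followed in pancreas, and Artn (0.0650 ± 0.0652) was last among the members with counts. Of the summed coreceptor level per kilobase, Gfra4 made up 93.1 ± 1.92% in tumour and 54.9 ± 9.99% in pancreas, and Gfra2 made up 4.96 ± 1.67% in tumour and 39.6 ± 8.35% in pancreas. Of the summed ligand level per kilobase, Gdnf made up 81.5 ± 6.69% in tumour and 73.5 ± 10.2% in pancreas.

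**Figure D2:**
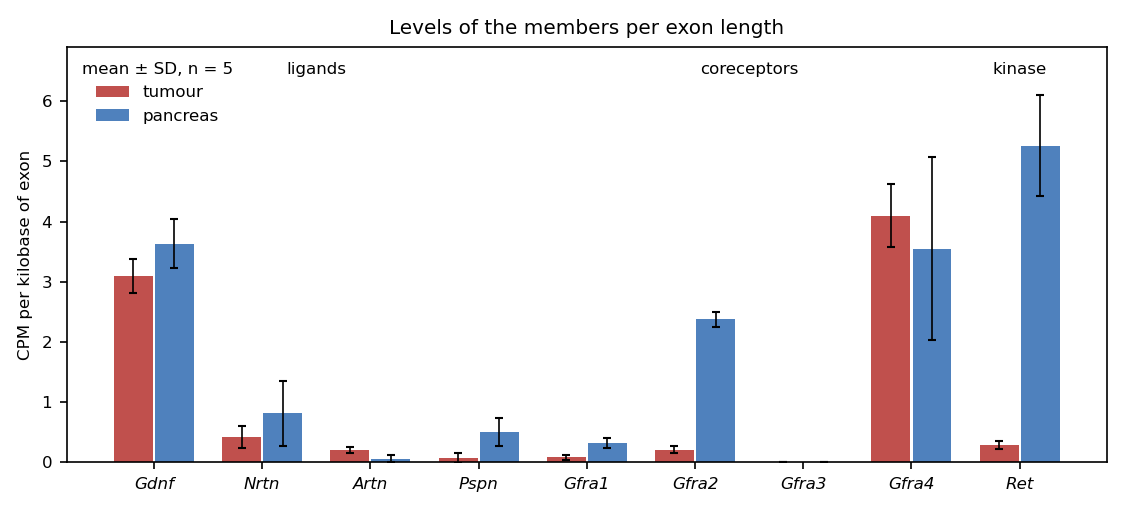
Mean level of each member in CPM per kilobase of exon, with tumour bars left of pancreas bars and error bars for the SD of 5 libraries. Ret stands at 0.289 in tumour and 5.26 in pancreas, while Gdnf and Gfra4 are above 3 CPM per kilobase in both groups.

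Set beside each other as ligand and preferred coreceptor, the pairs read as follows. For GDNF and GFRα1 the ligand gene was at 11.4 CPM in tumour and 13.3 in pancreas, and the coreceptor gene was 3.88-fold lower in tumour. For neurturin and GFRα2 the fold change of the ligand gene did not pass, and the coreceptor gene was 11.2-fold lower in tumour. For artemin and GFRα3 the ligand gene rose, by a narrow call that ended in 9 of 17 alternatives, and the coreceptor gene had 0 counts. For persephin and GFRα4 the ligand gene was near the floor, with a total of 13 counts in tumour and 90 in pancreas, and per kilobase the coreceptor gene was above the other 3 in every tumour library.

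GDNF can also act without Ret, through the adhesion molecule NCAM and the kinase Fyn or through syndecan 3. Ncam1 had 195 to 214 CPM in the tumour libraries, against 98.9 to 106.4 CPM in the pancreas libraries, and rose 2.01-fold (log2 fold change 1.01 ± 0.04, edgeR adjusted p = 3.7e-10). Fyn rose by as much, at 22.8 ± 1.32 CPM in tumour and 11.3 ± 1.70 in pancreas (log2 fold change 1.01 ± 0.10, edgeR adjusted p = 9.9e-07). Sdc3, named to complete this list of 3, did not pass, at 11.5 ± 1.79 CPM in tumour and 11.7 ± 1.50 in pancreas. The list thus had 2 members higher, 0 lower and 1 not passed, with a median log2 fold change of 1.01, beside 65.8% passing among all tested genes.

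Adaptors and enzymes that bind phosphorylated Ret, most of which serve many receptors, moved both ways. Of 16, 13 could be tested, and 6 rose, 3 fell and 4 did not pass (median log2 fold change 0.072, against 0.0022 for all genes). A share of 65.8% of all tested genes passed, so the count is near that of genes at large. Pik3r1, the regulatory subunit of phosphoinositide 3-kinase, rose 4.11-fold (131 ± 3.60 CPM in tumour and 31.9 ± 2.41 in pancreas, edgeR adjusted p = 1.7e-11). The docking protein genes Gab2 (2.49-fold higher, 46.8 ± 1.45 CPM in tumour and 18.8 ± 1.14 in pancreas) and Frs2 (1.56-fold higher, 130.3 ± 5.18 CPM in tumour and 83.5 ± 9.92 in pancreas) rose too. Grb10, an adaptor that restrains receptor signalling, was 1.54-fold lower, at 9.50 ± 1.70 CPM in tumour and 14.6 ± 2.76 in pancreas. The adaptor genes Grb7, Dok5 and Dok6 had too few counts to be tested.

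Genes known to respond to GDNF and Ret in the mouse ureteric bud were split as well. Of 8, 6 could be tested, with 2 higher, 3 lower and 1 not passed (median log2 fold change -0.32), beside 32.4% higher and 33.4% lower among all tested genes. Spry1, a feedback inhibitor of receptor tyrosine kinases, had 1.89, 1.57, 1.99, 1.94 and 1.25 CPM in tumour libraries 1 to 5, against 12.9, 11.3, 11.9, 10.5 and 10.5 CPM in pancreas libraries 1 to 5. The groups were far apart, and Spry1 was 6.59-fold lower in tumour (log2 fold change -2.72 ± 0.14, edgeR adjusted p = 2.5e-09). Dusp6, a phosphatase that switches off ERK, was 3.38-fold lower (17.7 ± 1.07 CPM in tumour and 59.7 ± 6.46 in pancreas, edgeR adjusted p = 5.9e-10). In the other direction, Met, the receptor of hepatocyte growth factor, was 3.63-fold higher (130 ± 3.94 CPM in tumour and 35.8 ± 3.24 in pancreas, edgeR adjusted p = 6.1e-11). The transcription factor gene Etv5 rose 1.39-fold, at 50.8 ± 2.99 CPM in tumour and 36.6 ± 3.78 in pancreas. Many receptors other than Ret act on all of these genes.

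Genes that regulate Gdnf or Ret transcription in the embryo were lower wherever they could be tested. Of 13, 6 were tested and 6 fell (median log2 fold change -1.11), against 33.4% of all genes that were lower. Among the 6, Eya1 averaged below 1 CPM in both groups, and its groups overlapped. The homeobox gene Six2, which marks nephron progenitors, was at 47.9 ± 2.95 CPM in tumour and 109.8 ± 7.62 in pancreas (log2 fold change -1.20 ± 0.06, edgeR adjusted p = 1.7e-09). Foxc1 (65.5 ± 5.43 CPM in tumour and 180 ± 42.9 in pancreas) and Slit2 (6.09 ± 0.464 CPM in tumour and 16.8 ± 5.79 in pancreas), both of which limit where the mouse kidney makes Gdnf, were 2.75-fold and 2.76-fold lower in tumour. Gata3, which maintains Ret in the mouse nephric duct, was 1.62-fold lower (5.19 ± 1.04 CPM in tumour and 8.43 ± 0.505 in pancreas). The 7 that could not be tested were near or at 0 and included Sox10, which drives Ret in the neural crest.

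Of 7 genes for processing and turnover, 6 were tested, with 4 higher and 2 lower (median log2 fold change 0.59), beside 32.4% higher and 33.4% lower among all tested genes. Furin, a protease that cleaves growth factor precursors, was 1.94-fold lower in tumour (95.6 ± 2.45 CPM in tumour and 185 ± 7.78 in pancreas, edgeR adjusted p = 5.2e-10). The ubiquitin ligase genes Cbl (154 ± 3.66 CPM in tumour and 96.0 ± 10.9 in pancreas) and Cblb (153 ± 3.39 CPM in tumour and 100.04 ± 2.80 in pancreas), which mark activated receptors for breakdown, were 1.61-fold and 1.53-fold higher. Cd2ap, an adaptor that joins Cbl in endocytosis, was 1.48-fold higher. Among distant relatives of the family, Gfral, the coreceptor of GDF15, had 0 counts in all libraries. Its ligand gene Gdf15 was near the floor, at 0.140 ± 0.0338 CPM in tumour and 0.335 ± 0.178 in pancreas (edgeR adjusted p = 0.0364), a call that ended in 13 of the 17 alternatives that gave it a value, among them leaving out any tumour library. Gas1, a relative of the coreceptors, did not pass (22.2 ± 3.31 CPM in tumour and 15.3 ± 8.26 in pancreas, edgeR adjusted p = 0.208).

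**Figure D3:**
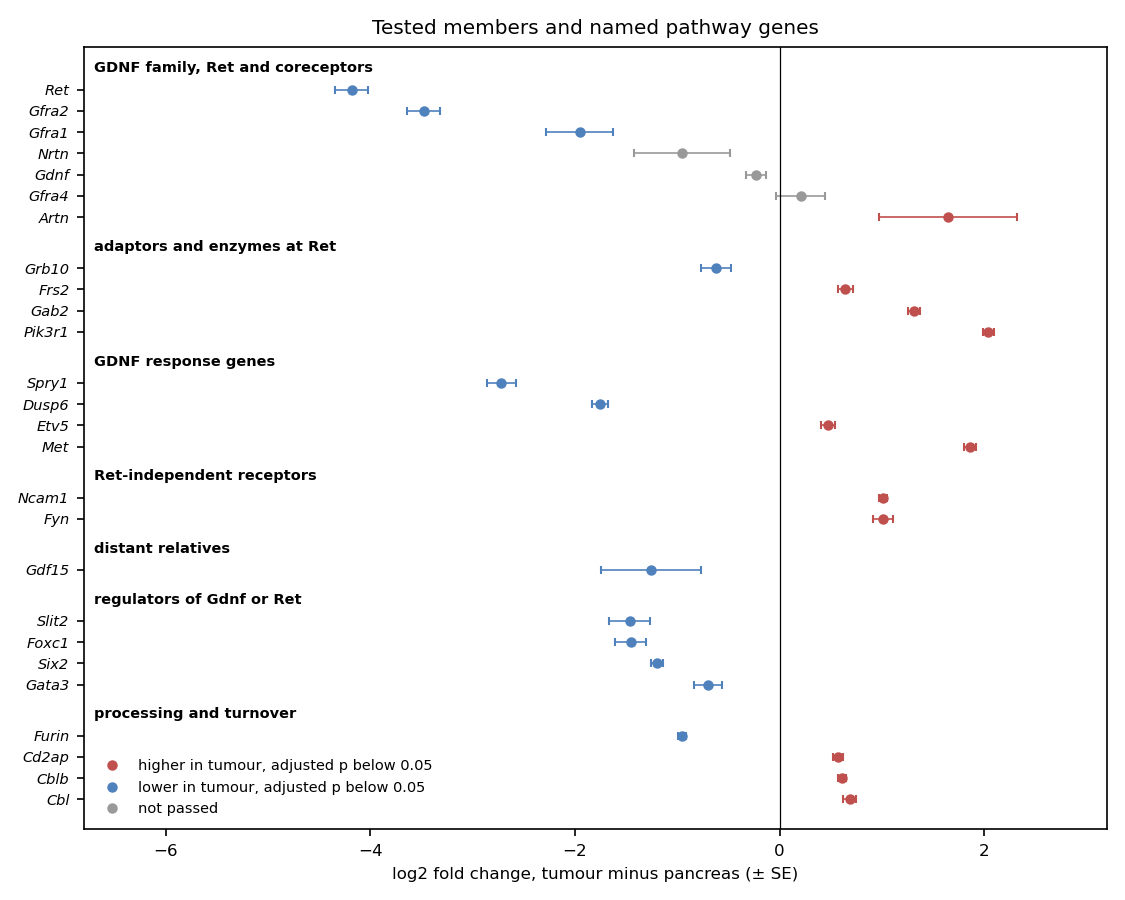
Log2 fold change (tumour minus pancreas) ± SE of the tested members and the pathway genes chosen for naming, red where higher in tumour and blue where lower with adjusted p below 0.05, and grey where not passed. Ret (-4.18) and Gfra2 (-3.48) lie lowest, and the regulators Six2, Foxc1, Slit2 and Gata3 lie left of 0.

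Across the 10 libraries, the genes whose levels followed a member most closely were found by Pearson's r of log2(CPM + 1) among 11829 other genes that averaged 1 CPM or more. These values are a description, because many genes that are clearly lower in tumour follow Ret, and 1578 genes had an r above 0.95 with it. The closest to Ret were the Wnt inhibitor gene Sfrp1 (r = 0.999), Arf2 (0.997) and Mycn (0.996), a transcription factor gene at 0.0947 CPM in tumour and 3.22 in pancreas. Those closest to Gfra2 were the interferon gamma receptor gene Ifngr1 (0.998), Syde1 (0.997) and the glutathione peroxidase gene Gpx3 (0.997). Those closest to Gfra1 were Ints13 (0.982), Tmc6 (0.980) and Cyp3a13 (0.977). Gfra4, which did not separate the groups, followed Gas6 (0.966), a ligand of the TAM receptor kinases, Faf2 (0.958) and the BMP inhibitor gene Nog (0.956). Gdnf followed Brms1 (0.910) and Adh5 (0.902), and no gene reached 0.95 with it. Of the 3 genes closest to Ret, Sfrp1 stood at 0.396 CPM in tumour and 25.9 in pancreas.

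**Figure D4:**
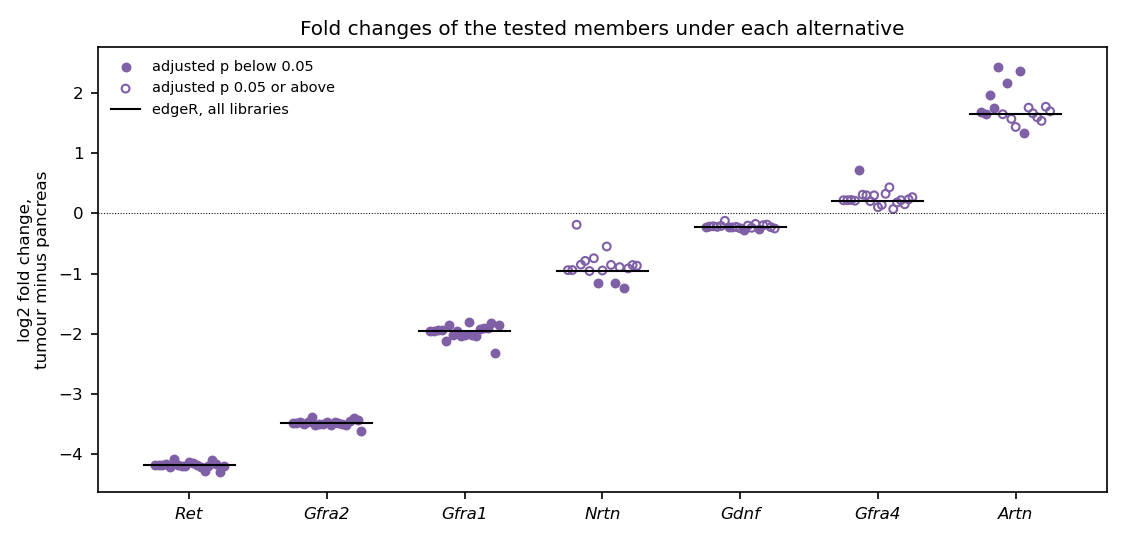
Log2 fold change (tumour minus pancreas) of the 7 tested members under each alternative as points, filled where the adjusted p was below 0.05 and open where not, with a black line for edgeR on all libraries. Ret, Gfra2 and Gfra1 stayed below 0 and filled under all 19 alternatives, while Artn, Nrtn, Gdnf and Gfra4 have both kinds of point.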

How the data were processed

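Per the labels' protocols, tissue was dissociated with hyaluronidase and collagenase (pancreas) or a tumour dissociation kit (tumour), so digestion and group cannot be told apart. Cells were sorted, and 2 µg of RNA per sample went into NEBNext Ultra libraries, a kit that does not mark strand. The deposited values are estimated counts for 55401 genes. The build was mm10 and the tools were HTSeq, HISAT and HISAT2, per the submitters' processing notes, with versions, settings and annotation not given in the sources used here. All estimated counts were whole numbers, so no rounding was needed. In each library 1.69 to 2.07 times as many genes had exactly 4 counts as had neighbouring values, so 1 fragment may have been counted more than once, and no counting interval is given apart from the limit for a count of 0.

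Columns were matched to samples by their description codes and groups taken from titles. Genes passing filterByExpr (minimum count 10, minimum total 15) were compared with edgeR 4.0.16 (quasi-likelihood, robust, TMM) in R 4.3.3, with p adjusted over 17548 genes. SE is the fold change divided by the square root of F. Alternatives used DESeq2 1.42.0, limma-voom (limma 3.58.1), other scalings and filters, a replicate block, counts divided by 4 and left-out libraries. Marker sums were compared as log2(CPM + 1) over all 252 assignments. Coordinates and exon lengths are from GENCODE M21, in which 54349 gene identifiers were found. The test was checked on simulated counts. It called 49.3%, 67.2% and 68.2% of genes seeded with 1.5-fold, 2-fold and 4-fold changes, and 0.0346% of genes without a seeded change. The simulation left 17348 of 17548 genes unchanged, whereas 65.8% of genes passed in the data. Adjustment of p depends on that share, so these rates do not carry over to the test as reported. A gene that did not pass may still differ. Chi-square per degree of freedom between libraries of a group was 3.01 to 44.0 (counts divided by 4), so no library was a copy of another. Named were all 9 members, up to 4 called genes per pathway list by fold change with at least 1 CPM, Ncam1, Sox10, Ngfr and Gdf15, and the 3 genes most like each member with a mean of at least 1 CPM. Sdc3, Gas1, Gfral, Grb7, Dok5, Dok6, Eya1, Pdgfra, Myh11, Cspg4 and other single markers were named after their values were seen, to complete counts. Some genes that the rule or the lists hold are not reported here by name. Members and lists were chosen with earlier results of these data known. Endocrine, acinar, epithelial and macrophage markers were also summed.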

Additional observations from a re-analysis of the deposited data

Results flagged for a closer look

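Among the 82 sets of 5 libraries looked at (members, named pathway genes and marker sums in each group), 3 held a library set far apart from the other 4, and chance alone gives about 1 in 20. Nrtn stood at 0.752 CPM in tumour replicate 2, with the next tumour library at 0.389, and without that library Nrtn passed as lower in tumour. Gfra1 stood at 0.872 CPM in tumour replicate 4, with the next tumour library at 0.402, and without it the log2 fold change was -2.33. The fibroblast marker sum was 499 CPM in pancreas replicate 5, with the next pancreas library at 572.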

How the results depend on the processing

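Under all 19 alternatives Ret, Gfra2 and Gfra1 kept their direction and their call, with log2 fold changes of -4.30 to -4.08, -3.61 to -3.38 and -2.33 to -1.80. Gdnf passed with DESeq2 (-0.22) and limma-voom (-0.23), and its range over left-out single libraries was -0.28 to -0.18 (passing without tumour replicate 1 or pancreas replicate 2). Artn did not pass without a low-count filter (1.64), and ranged from 1.33 to 2.37 over left-out libraries. Nrtn ranged from -1.25 to -0.55 and Gfra4 from 0.069 to 0.43 over left-out libraries, and without pancreas replicates 3 and 4 Gfra4 was at 0.71 and Nrtn at -0.19 (adjusted p = 0.753). The number of members called higher was 0 without a filter, with at least 1 CPM in 5 libraries and with counts divided by 4, was 2 without pancreas replicates 3 and 4, and ran from 0 to 1 over left-out libraries, while the number called lower ran from 3 to 5. Same-numbered libraries of the groups deviated together little (r = -0.0435 to 0.0976), though 3 of 5 tumour libraries correlated best with their own number. These values cannot settle whether the numbers pair libraries, and the labels do not say. With the replicate block Ret was at -4.19, and 1 member was higher and 3 lower, as without it. With the length of the longest transcript in place of the union of exons, Ret was at 0.358 CPM per kilobase in tumour and 6.52 in pancreas, and Gfra4 at 4.96 in tumour. The endocrine marker sum, near 0 in both groups (exact adjusted p = 1), changed sign over left-out libraries (log2 difference -0.059 to 0.034). Of 21 tested pathway genes printed with values, 18 kept their direction and call throughout. Gdf15 lost its call in 13 of 17 alternatives (adjusted p = 0.0513 to 0.209), the block included. Gas1 passed as higher without pancreas replicates 3 and 4 (1.20). Sdc3 never passed, and its sign turned with scaling by totals alone (0.076) and over left-out libraries (-0.090 to 0.042). The causes were not tested. Gfra3 had no counts, and Pspn had too few to be tested with all libraries unless the filter was dropped.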

Other observations

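Marker lists that the report does not describe gave these values, as CPM of the library total. The 7 epithelial markers summed to 40.2 to 43.2 in tumour and 42.1 to 49.6 in pancreas (exact permutation, adjusted p = 0.0179), with Epcam, Cdh1 and Krt8 below 0.1 CPM. The 6 acinar markers summed to 1.60 to 2.89 in tumour and 0.386 to 1.39 in pancreas, with Cpa1 and Prss2 at 0. Over all libraries pooled, 93.4% of the acinar sum came from Cela1. The 5 macrophage markers summed to 15.5 to 19.4 in tumour and 4.21 to 14.2 in pancreas, with Adgre1 at 0 (exact permutation, adjusted p = 0.0102 for both lists). The 5 endocrine markers summed to 0 to 0.292 in tumour and 0.0660 to 0.173 in pancreas, with Ins1 and Ins2 at 0.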
